A study of Mus musculus with 17 samples.

Results

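Ribosome biogenesis genes encode the proteins that transcribe ribosomal RNA, cut, fold and modify it, and assemble it with ribosomal proteins into subunits. Here 37 such genes, chosen by name, with earlier results of these data known, were followed in mouse sympathetic ganglia that carry an activating mutation of Alk. Of the 37 genes, 32 had a row among the 17306 probe sets of the array, and 30 of these 32 passed a filter on low values (a log2 value above 4 in at least 2 of 17 arrays) that kept 9973 probe sets. Npm1, Fbl, Nop56, Noc2l and Mrto4 had no row under their symbols and were not analysed here. Heatr1, with log2 values between 2.66 and 3.50, and Nle1, with values between 1.99 and 2.26, did not pass the filter and were not tested.

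Ribosome production starts in the nucleolus, where RNA polymerase I (Pol I) transcribes the ribosomal DNA into a long precursor. Small nucleolar ribonucleoproteins (snoRNPs) guide the methylation (box C/D) and pseudouridylation (H/ACA) of this precursor, and separate sets of assembly factors then build the small and the large subunit. Cells that grow or divide make many ribosomes, and genes of this kind are known targets of the Myc transcription factors, among them Mycn, which is amplified in a share of neuroblastomas. Alk is a receptor tyrosine kinase of developing sympathetic neurons that is mutated in some of these tumors.

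RNA came from ganglia pooled over the superior cervical and stellate ganglia of C57BL/6 mice, and each sample was hybridized to 1 Affymetrix mouse array. The groups were P18 Het (n = 2), P18 Wt (n = 3), P0 Hom (n = 4), P0 Het (n = 4) and P0 Wt (n = 4), where P0 is the day of birth and P18 postnatal day 18. Het ganglia carried the knock-in Alk F1178L allele beside a wild-type allele and Hom ganglia carried the knock-in allele on both chromosomes. The knock-in allele is a germline change, present in all cells, whose mutated exon is flanked by lox sites. The labels do not say that the samples of a group came from separate animals, so that p-values measure the spread between samples, which may be technical. They name no batch, so P18 and P0 cannot be told apart from a batch that followed stage, and since the numbers of the P0 samples run through each genotype in turn, the same holds for a batch that followed genotype. The extraction label speaks of tumors and a kit, whereas the methods of the study describe Trizol for ganglia.

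Array medians lay between 4.41 and 4.68 (log2), and were highest in P0 Hom replicate 12 (4.68) and P0 Wt replicate 3 (4.60). Sympathetic neuron markers were high in every array, with Dbh between 12.14 and 13.59 and Th between 10.97 and 13.33. Genes of neighbouring tissues varied between arrays, most of all skeletal muscle (Acta1 between 3.45 and 13.91) and fat (Adipoq between 2.94 and 11.56), and the sensory neuron gene Avil reached 12.14. Summed over the list, the sensory neuron genes spanned 12.13 to 12.15 in P18 Het, 11.74 to 12.14 in P18 Wt, 4.89 to 5.40 in P0 Hom, 4.97 to 5.33 in P0 Het and 5.11 to 9.72 in P0 Wt arrays on the log2 scale, and within P0 Wt replicates 1 and 4 were the high ones. Where these sums were high they came mostly from Avil, since Pou4f1 reached at most 5.94, Scn10a 4.90 and Isl2 4.47. The 2 sensory neuron genes past the filter went opposite ways with stage in Wt, with P18 minus P0 differences of 4.93 and -1.52. P0 Hom replicates 12 and 10 and P0 Wt replicate 3 correlated least with the other arrays of their groups (mean r = 0.951, 0.956 and 0.958).

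The 30 genes as a set were highest in P0 Het ganglia and lowest in the P18 groups. When each gene was centred on its mean over the 17 arrays, the median over the 30 genes was -0.33 ± 0.04 in P18 Het, -0.21 ± 0.05 in P18 Wt, -0.06 ± 0.10 in P0 Hom, 0.29 ± 0.05 in P0 Het and 0.14 ± 0.09 in P0 Wt arrays (log2, mean ± SD over arrays). The P0 Hom arrays spanned -0.20 to 0.04, the P0 Het arrays 0.22 to 0.34 and the P0 Wt arrays 0.03 to 0.24. The Hom arrays did not overlap the Het arrays, while the Wt range overlapped Hom at its lower end and Het at its upper end. In bulk ganglia fewer cells of a type and less RNA per cell cannot be told apart.

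**Figure D1:**
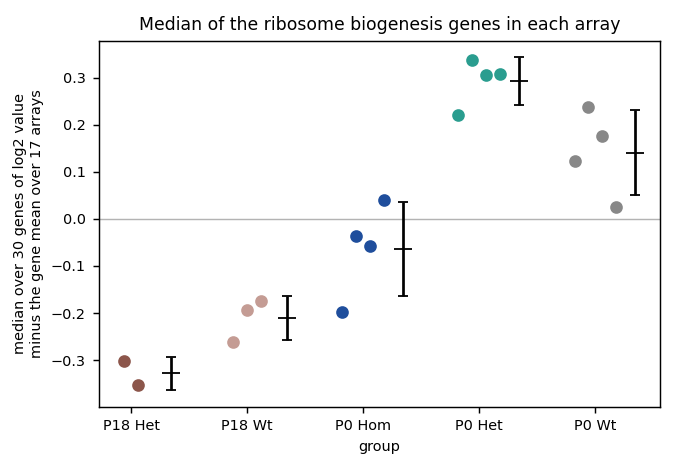
Each point is 1 array and gives the median over the 30 genes of the log2 value minus the gene's mean over 17 arrays, with the arrays grouped by stage and genotype; the black bar beside each group is the mean ± SD over its arrays. The 4 P0 Het arrays sit between 0.22 and 0.34, above all P0 Hom arrays (-0.20 to 0.04) and above all P18 arrays.

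The genes did not move as 1 block. The correlation of a gene with the mean of the other 29 over the 17 arrays had a median of 0.65 and exceeded 0.5 for 20 genes; the arrays share stage and genotype here, and once group means were removed the median was 0.17. Tsr1 followed the others most closely (r = 0.94), and Nop10 ran against them (r = -0.42). Outside the list, the 5 kept genes most like the mean of the 30 were Zfp207 (r = 0.93), Nln (r = 0.92), BC030500 (r = 0.92), Wdr43 (r = 0.92) and Mad2l2 (r = 0.91), over the same 17 arrays. Of these, Wdr43 is itself a small subunit assembly factor.

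**Figure D2:**
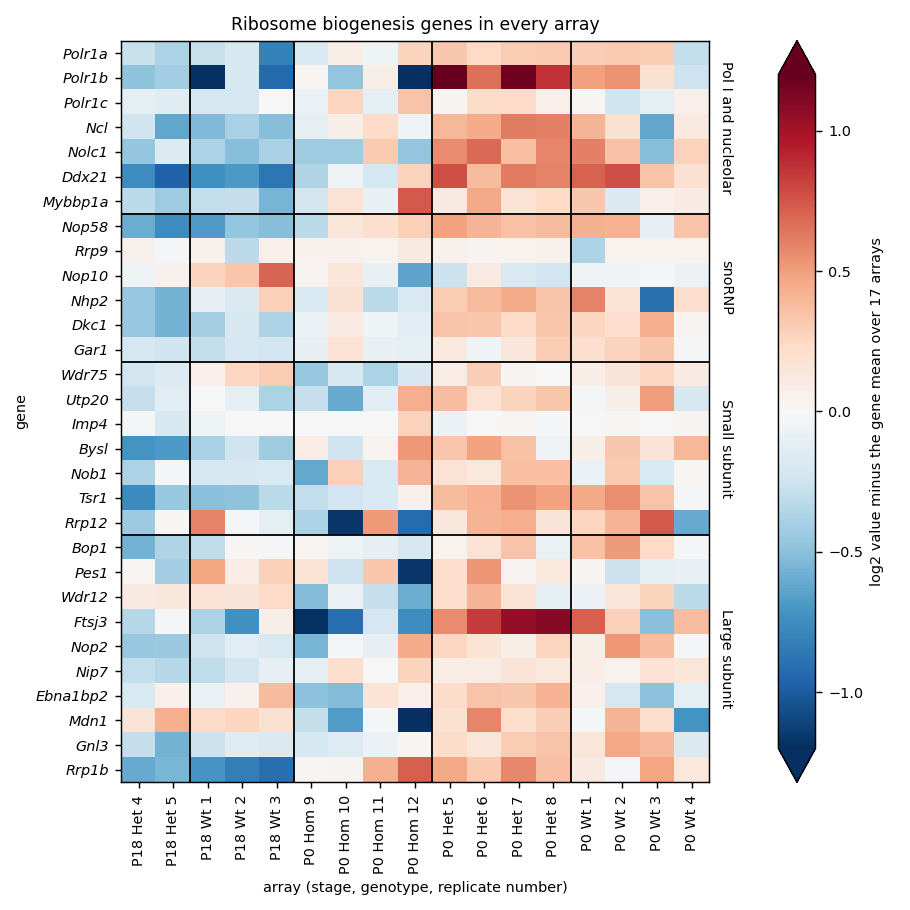
Rows are the 30 genes past the filter, grouped by role, and columns are the 17 arrays; color gives the log2 value minus the gene's mean over all arrays, and colors saturate beyond 1.2 in either direction. The P0 Het block is red for most genes, the P0 Hom block is mixed, and Nop10 is highest in P18 Wt.

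Since the E box CACGTG is the motif bound by dimers of Myc proteins with Max, its letters were looked for in the promoter windows of RefSeq (GRCm38.p6, 250 bases before to 50 after the start of a gene). Of the 32 genes with a row, 30 matched a window and 8 of these held the motif (26.7%), namely Imp4, Mdn1, Nop2, Utp20, Pes1, Mybbp1a, Tsr1 and Nle1. The motif, which reads the same on both strands, occurred for 8.09% of all 27025 genes with a window. Among genes past the filter it occurred for 11.8% of 7767, whereas the 8 genes above include Nle1, which did not pass the filter. A match is a description of letters, not a binding site. The stretches around the motif are shown for 4 of them, with the motif in capitals: Nop2 and Imp4 hold it upstream of the start, and Tsr1 and Mybbp1a, added after their values were seen, hold it just past the start.
Tsr1, chr11:74898092-74898121, plus strand: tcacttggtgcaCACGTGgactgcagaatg
Mybbp1a, chr11:72441355-72441376, plus strand: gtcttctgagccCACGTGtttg
Nop2, chr6:125131781-125131870, plus strand: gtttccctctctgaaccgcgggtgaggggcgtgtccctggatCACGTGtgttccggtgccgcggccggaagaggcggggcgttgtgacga
Imp4, chr1:34439666-34439755, plus strand: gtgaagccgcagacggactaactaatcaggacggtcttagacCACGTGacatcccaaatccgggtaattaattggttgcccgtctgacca
Genes with the motif did not share a pattern: Tsr1 passed the test in 4 comparisons, whereas Imp4 stayed near the filter in all arrays.

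At birth the homozygous ganglia stood apart from the heterozygous ones. Of the 30 genes, 9 were lower in Hom than in Het ganglia at an adjusted p under 0.05, beside 3.25% of all 9973 genes called lower. None was higher, beside 4.14% of all genes, also at an unadjusted p under 0.05 by limma or by the methods' t-test, the gene-by-gene test that the study's methods name. Calls are from limma, with Benjamini-Hochberg adjustment over all genes tested. The 9 were Polr1b, Nolc1, Ddx21, Dkc1, Wdr75, Tsr1, Wdr12, Ftsj3 and Mdn1, which include members of all 4 role groups. The median difference over the 30 genes was -0.35, against -0.01 over all genes, and 27 of the 30 lay below 0, against 52.1% of all genes. All 4 Hom arrays lay below all 4 Het arrays for 13 of the 30 genes (43.3%), beside 8.68% of all genes. The count of 9 fell to 3 without P0 Hom replicate 9, to 4 without P0 Het replicate 5 or replicate 6 and to 5 without P0 Het replicate 7, and was 14 without P0 Hom replicate 12 and P0 Wt replicate 3.

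Against wild type 4 of the 30 genes passed the test. In Hom against Wt ganglia Ddx21, Wdr75, Tsr1 and Ftsj3 were lower, beside 3.34% of all genes called lower, no gene was higher even at an unadjusted p under 0.05 by either test, and the median difference was -0.21 against 0.01 over all genes. This comparison and the one against Het share the Hom arrays. The count was 0 when only the arrays compared were fitted, 1 without P0 Wt replicate 2 or P0 Hom replicate 9 and 2 without P0 Wt replicate 1.

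In Het against Wt ganglia at birth no gene of the 30 was called by limma, beside 3.11% of all genes. At an unadjusted p under 0.05 there were 4 higher (Polr1b, Ncl, Ftsj3 and Ebna1bp2), 13.3% beside 10.4% of all genes, and none lower. The methods' t-test gave 4 unadjusted, in part other genes (Polr1b, Polr1c, Pes1 and Ebna1bp2), and 0 after Benjamini-Hochberg adjustment. Of the 30 differences 24 (80%) lay above 0, beside 56.8% of all genes, with a median of 0.14 against 0.03. Without P0 Wt replicates 1 and 4, the P0 arrays with the most sensory neuron transcripts, this median was 0.01. The group means at birth ran in the order Hom, Wt, Het for 19 of 30 genes (63.3%), beside 20.7% of all genes.

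**Figure D3:**
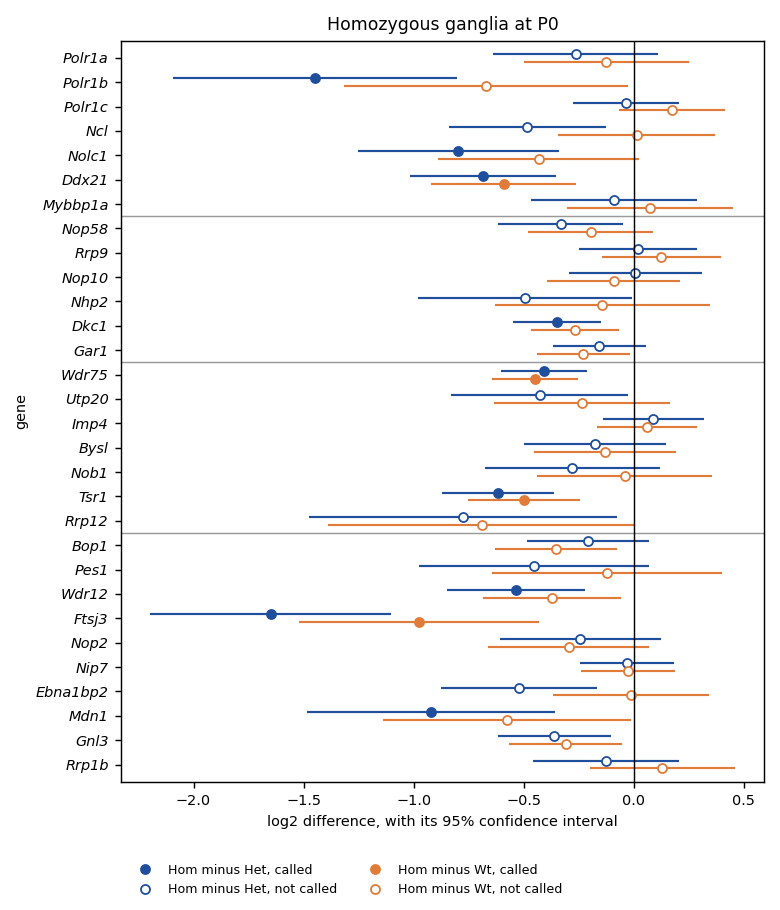
Each gene has 2 points, the log2 difference of Hom minus Het (blue) and of Hom minus Wt (orange) at P0, with 95% confidence intervals from limma; filled points are called at an adjusted p under 0.05, and gray lines separate the role groups. Filled blue points are the 9 genes lower in Hom than in Het, led by Ftsj3 at -1.65 and Polr1b at -1.45, and filled orange points are the 4 lower in Hom than in Wt.

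Between birth and day 18 more of the set was called lower than higher in both genotypes. In Wt ganglia 14 of the 30 genes were lower at P18 than at P0 (46.7%), beside 27% of all genes called lower, and 1 was higher (Nop10), beside 27.9% of all genes. In Het ganglia 19 were lower (63.3%), beside 25.5% of all genes, and none was higher, beside 22.3%. At an unadjusted p under 0.05 none of the 30 was higher in Het either. After adjustment the methods' t-test called 19 lower and none higher in Het, with Utp20 and Ebna1bp2 in place of Gar1 and Wdr75. In Wt it called 8 lower, leaving out Polr1a, Polr1b, Ncl, Nolc1, Bop1 and Gnl3, and 2 higher (Nop10 and Pes1). Polr1a passed the filter through P0 Het and P0 Wt arrays alone, and without it 13 of 29 genes (44.8%) were lower in Wt and 18 of 29 (62.1%) in Het. The median differences were -0.60 in Het and -0.38 in Wt, against -0.04 and 0.01 over all genes. These 2 comparisons share no array: the 14 genes lower in Wt were all lower in Het, 100% of the Wt list and 73.7% of the Het list, where over all genes the shared calls made up 77.0% of the Wt list and 81.5% of the Het list. Both together called 14 of the 30 genes (46.7%), beside 20.8% of all genes. Without P18 Wt replicate 1 the Wt comparison called 9 genes in all, and without P18 Het replicate 4 or 5 the Het comparison called 10 or 12.

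Markers of other cells moved with stage as well. Endothelial genes were lower for 4 of 4 in both genotypes (median -1.94 in Het and -2.43 in Wt), with a summed level of 5.93 to 6.27 in P18 Het and 5.76 to 6.33 in P18 Wt, against 7.28 to 8.14 in P0 Het and 7.70 to 8.34 in P0 Wt arrays. In Wt 5 of 8 fibroblast and matrix genes were lower and 1 higher (median -1.27), and 4 of 8 skeletal muscle genes were lower (-3.78). Of 11 sympathetic neuron genes 7 were higher and 3 lower (0.68), and of 8 glia genes 1 was higher and 1 lower (0.26). Of all genes 27% were called lower and 27.9% higher in Wt. In Het the fibroblast and matrix genes gave 4 lower and 2 higher (-0.29) and the muscle genes 1 lower (-2.85). The sympathetic neuron genes gave 4 higher and 3 lower (0.27), and the glia genes 5 higher and 1 lower (1.21). Of all genes 25.5% were called lower and 22.3% higher in Het. Muscle genes lower in Het (12.5%) and sympathetic neuron genes lower in either genotype (27.3%) were below or near the share of all genes. Their part in the stage differences of the ribosome biogenesis genes was not tested.

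**Figure D4:**
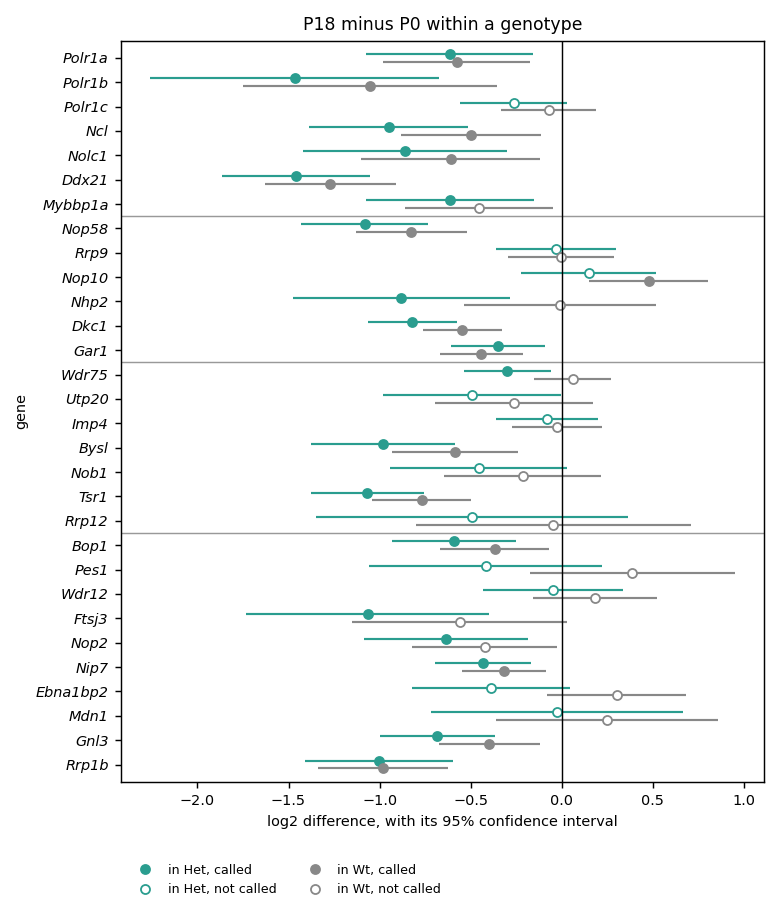
Each gene has 2 points, the log2 difference of P18 minus P0 in Het (green) and in Wt (gray), with 95% confidence intervals from limma; filled points are called at an adjusted p under 0.05. In Het 29 of 30 points lie left of 0 and in Wt 24 of 30, with Ddx21 at -1.46 in Het and -1.27 in Wt, and Nop10 is the one filled point right of 0.

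None of the 30 genes was called in Het against Wt ganglia at P18, beside 0.261% of all genes. By limma 3 lay below and 0 above at p under 0.05 before adjustment (Nop10, Wdr75 and Bop1). The methods' t-test gave 3 unadjusted calls, in part other genes (Nop2, Bysl and Wdr75), and 0 adjusted calls. The median difference was -0.09, and with 2 Het arrays small changes were not detectable. The difference between the Het effect at P18 and that at P0 was tested as an interaction and called none of the 30, beside 0.14% of all genes, with 3 lower (Nhp2, Wdr75 and Ebna1bp2) and 0 higher at an unadjusted p under 0.05; the methods' t-test has no form for it. It lay below 0 for 29 of 30 genes (96.7%), beside 57.4% of all genes. The median over the 30 was -0.25 against -0.05 over all genes, and it was -0.19 without P0 Wt replicates 1 and 4.

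Among the proteins that drive ribosomal DNA transcription, 3 of 7 genes (42.9%) were lower in Hom than in Het, beside 3.25% of all genes. With stage in Wt 5 of 7 (71.4%), Polr1a included, were lower, beside 27% of all genes. Ddx21, an RNA helicase that coordinates Pol I transcription with rRNA processing, had log2 values of 6.19 and 5.97 in P18 Het, 6.20, 6.25 and 6.07 in P18 Wt, 6.58, 6.88, 6.73 and 7.22 in P0 Hom, 7.71, 7.32, 7.57 and 7.54 in P0 Het and 7.65, 7.72, 7.28 and 7.12 in P0 Wt ganglia. Every P18 array was below every P0 array of its genotype, and the Hom arrays were below the Het arrays but overlapped Wt. The difference was -0.68 ± 0.16 (adjusted p = 0.016) in Hom against Het, -0.59 ± 0.16 (adjusted p = 0.0254) in Hom against Wt, -1.46 ± 0.19 (adjusted p = 1.32e-05) for P18 against P0 in Het and -1.27 ± 0.17 (adjusted p = 1.20e-05) in Wt (log2 ± SE, limma), and the call in Hom against Wt held in 10 of 17 alternatives.

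Polr1b, a core catalytic subunit of Pol I, had values of 4.82 and 4.89 in P18 Het, 4.0, 5.11 and 4.38 in P18 Wt, 5.33, 4.83, 5.38 and 3.97 in P0 Hom, 6.68, 5.97, 6.47 and 6.17 in P0 Het and 5.80, 5.84, 5.49 and 5.05 in P0 Wt ganglia. The Het arrays at birth were above both other genotypes, while Hom and Wt overlapped. Hom ganglia were at 0.367-fold of the Het level (-1.45 ± 0.30, adjusted p = 0.0102), Hom minus Wt was -0.67 ± 0.30 (adjusted p = 0.209) and Het minus Wt was 0.78 ± 0.30 (adjusted p = 0.184), neither of which passed the test. P18 minus P0 was -1.47 ± 0.37 (adjusted p = 0.00401) in Het and -1.05 ± 0.33 (adjusted p = 0.013) in Wt.

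Nolc1, a nucleolar chaperone of snoRNPs, had values of 5.98 and 6.28 in P18 Het, 6.07, 5.93 and 6.06 in P18 Wt, 6.02, 6.02, 6.76 and 5.98 in P0 Hom, 7.01, 7.12, 6.81 and 7.03 in P0 Het and 7.06, 6.80, 5.93 and 6.73 in P0 Wt ganglia. P0 Hom replicate 11 was close to the Het range and P0 Wt replicate 3 was as low as the other Hom arrays. The difference was -0.80 ± 0.21 (adjusted p = 0.035) in Hom against Het, a call that held in 7 of 16 alternatives. The Wt stage difference of -0.61 ± 0.23 (adjusted p = 0.0358) remained called in 4 of 17 alternatives and that in Het (-0.86 ± 0.26, adjusted p = 0.0128) in 12 of 13.

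Polr1c, a subunit that Pol I shares with RNA polymerase III, changed least of this group with stage in Wt. Its values were 7.97 and 7.93 in P18 Het, 7.86, 7.86 and 8.07 in P18 Wt, 7.99, 8.33, 7.97 and 8.42 in P0 Hom, 8.11, 8.30, 8.31 and 8.14 in P0 Het and 8.09, 7.84, 7.95 and 8.13 in P0 Wt ganglia. Both P18 Het arrays were below all P0 Het arrays, and the other groups overlapped. P18 minus P0 in Wt was -0.07 ± 0.12 (adjusted p = 0.64), with a 95% interval of -0.33 to 0.19. Ncl, the abundant nucleolar protein nucleolin, was lower at P18 in Het (-0.95 ± 0.21, adjusted p = 0.00123) and in Wt (-0.50 ± 0.18, adjusted p = 0.0292). The Wt call held in 7 of 17 alternatives, and the difference was -0.26 without P0 Wt replicates 1 and 4. All its Hom arrays lay below its Het arrays although the difference of -0.48 ± 0.17 (adjusted p = 0.0956) did not pass the test. Polr1a, the largest Pol I subunit, stayed near the filter at 2.91 to 4.04 in all arrays and was called lower at P18 in both genotypes, where no P18 array was above the filter's level of 4. Mybbp1a, a nucleolar regulator of Pol I transcription, was lower at P18 in Het (-0.61 ± 0.22, adjusted p = 0.0282) and missed the threshold in Wt (-0.45 ± 0.19, adjusted p = 0.055).

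**Figure D5:**
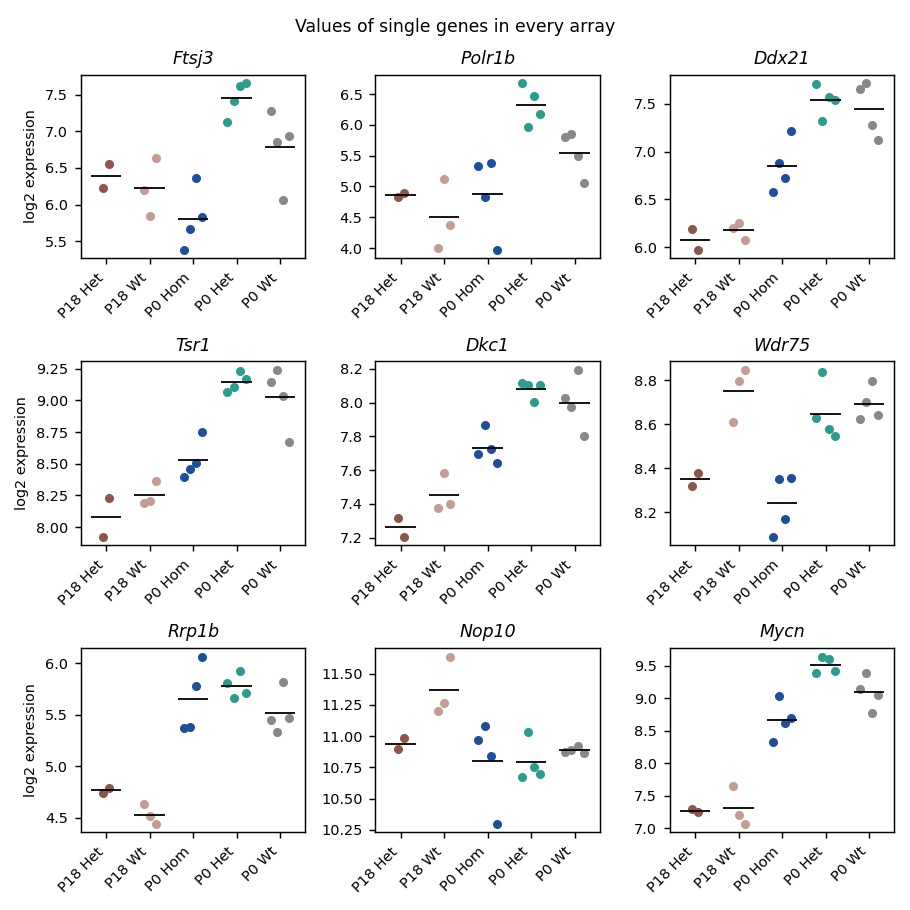
Log2 expression of 8 ribosome biogenesis genes and Mycn, each point 1 array and each black line a group mean; axes differ between panels and do not start at 0. In Ftsj3, Polr1b, Ddx21, Tsr1, Dkc1, Wdr75 and Mycn the P0 Hom points lie below all P0 Het points, and in Nop10 the P18 Wt points lie above all other points.

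Of the snoRNP proteins 3 of 6 genes (50%) were called lower with stage in Wt ganglia, beside 27% of all genes, and 1 (16.7%) higher, beside 27.9%. In Hom against Het 1 of 6 (16.7%) was lower, beside 3.25% of all genes. Nop58, a core protein of the box C/D snoRNPs, had values of 8.59 and 8.42 in P18 Het, 8.50, 8.71 and 8.67 in P18 Wt, 8.86, 9.33, 9.37 and 9.46 in P0 Hom, 9.67, 9.58, 9.54 and 9.56 in P0 Het and 9.61, 9.60, 9.08 and 9.52 in P0 Wt ganglia. All P18 arrays lay below all P0 arrays, and P18 minus P0 was -1.08 ± 0.16 (adjusted p = 5.30e-05) in Het and -0.83 ± 0.14 (adjusted p = 1.70e-04) in Wt. The Hom arrays were below the Het arrays, but the difference of -0.33 ± 0.13 (adjusted p = 0.151) did not pass the test.

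Dkc1, the pseudouridine synthase of the H/ACA snoRNPs, had values of 7.32 and 7.21 in P18 Het, 7.38, 7.58 and 7.40 in P18 Wt, 7.70, 7.87, 7.72 and 7.64 in P0 Hom, 8.11, 8.11, 8.0 and 8.10 in P0 Het and 8.03, 7.97, 8.20 and 7.80 in P0 Wt ganglia. The P18 arrays were below all P0 arrays, and the Hom arrays were below the Het arrays and met the Wt range. P18 minus P0 was -0.82 ± 0.12 (adjusted p = 2.65e-05) in Het and -0.55 ± 0.10 (adjusted p = 2.98e-04) in Wt, and Hom minus Het was -0.35 ± 0.09 (adjusted p = 0.035), a call that held in 7 of 16 alternatives.

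The partners of Dkc1 in the same particle did not follow it uniformly. Nop10 had values of 10.90 and 10.98 in P18 Het, 11.20, 11.27 and 11.64 in P18 Wt, 10.97, 11.08, 10.85 and 10.30 in P0 Hom, 10.68, 11.03, 10.75 and 10.70 in P0 Het and 10.87, 10.89, 10.92 and 10.87 in P0 Wt ganglia. It was the one gene of the 30 that limma called higher with stage in Wt (0.48 ± 0.15, adjusted p = 0.0153), with no overlap of the arrays. Of the 30 differences 6 lay above 0 in Wt. The Nop10 difference in Het was 0.15 ± 0.17 (adjusted p = 0.522). Gar1 fell with stage in Het (-0.35 ± 0.12, adjusted p = 0.0253) and in Wt (-0.44 ± 0.11, adjusted p = 0.00258). Nhp2 fell in Het (-0.88 ± 0.28, adjusted p = 0.0167) and gave -0.01 ± 0.25 (adjusted p = 0.976) in Wt, where P0 Wt replicate 3 was 7.25 and the other P0 Wt arrays lay between 8.32 and 8.75.

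Rrp9, which belongs to the U3 snoRNP, had values of 4.39 and 4.31 in P18 Het, 4.38, 4.03 and 4.4 in P18 Wt, 4.39, 4.38, 4.38 and 4.45 in P0 Hom, 4.39, 4.37, 4.38 and 4.39 in P0 Het and 3.96, 4.38, 4.37 and 4.38 in P0 Wt ganglia. All but the 3.96 of P0 Wt replicate 1 lie just above the filter, and no comparison called the gene.

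Of the small subunit assembly factors, 2 of 7 (28.6%), Tsr1 and Wdr75, were lower in Hom than in Het, beside 3.25% of all genes. Both were also lower in Hom than in Wt, beside 3.34% of all genes, and these comparisons share the Hom arrays. With stage in Wt 2 of 7 (28.6%), Tsr1 and Bysl, were lower, beside 27% of all genes. Tsr1, a GTPase-like factor bound to late precursors of the small subunit, had values of 7.92 and 8.23 in P18 Het, 8.19, 8.21 and 8.36 in P18 Wt, 8.40, 8.46, 8.50 and 8.75 in P0 Hom, 9.07, 9.11, 9.23 and 9.17 in P0 Het and 9.15, 9.24, 9.03 and 8.67 in P0 Wt ganglia. P18 arrays were below all P0 arrays, and the Hom arrays were below all Het arrays and overlapped Wt only through P0 Wt replicate 4. The differences were -0.62 ± 0.12 (adjusted p = 0.00639) in Hom against Het and -0.50 ± 0.12 (adjusted p = 0.0141) in Hom against Wt, and P18 minus P0 was -1.07 ± 0.15 (adjusted p = 2.03e-05) in Het and -0.77 ± 0.13 (adjusted p = 1.13e-04) in Wt. The call against Het held in all 16 alternatives (adjusted p between 0.00163 and 0.0353), and that against Wt in 13 of 17 (0.00161 to 0.215).

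Wdr75, a member of the complex that binds the nascent precursor, had values of 8.32 and 8.38 in P18 Het, 8.61, 8.80 and 8.85 in P18 Wt, 8.09, 8.35, 8.17 and 8.36 in P0 Hom, 8.63, 8.84, 8.58 and 8.55 in P0 Het and 8.62, 8.70, 8.80 and 8.64 in P0 Wt ganglia. The Hom arrays lay below all Het and all Wt arrays at birth, which no other gene called against Wt showed. The differences were -0.41 ± 0.09 (adjusted p = 0.0151) against Het and -0.45 ± 0.09 (adjusted p = 0.00465) against Wt. With stage it differed by -0.30 ± 0.11 (adjusted p = 0.0386) in Het and 0.06 ± 0.10 (adjusted p = 0.631) in Wt, and the Het call held in 5 of 13 alternatives.

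Bysl, a factor of small subunit precursors, had values of 6.30 and 6.32 in P18 Het, 6.62, 6.77 and 6.59 in P18 Wt, 7.10, 6.77, 7.05 and 7.54 in P0 Hom, 7.35, 7.50, 7.36 and 6.96 in P0 Het and 7.08, 7.34, 7.16 and 7.41 in P0 Wt ganglia. It fell with stage in Het (-0.98 ± 0.19, adjusted p = 4.0e-04) and Wt (-0.59 ± 0.16, adjusted p = 0.00664), with no overlap, and the 3 genotypes overlapped at birth.

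Utp20, a large scaffold protein of the small subunit processome, had values of 6.48 and 6.62 in P18 Het, 6.75, 6.64 and 6.38 in P18 Wt, 6.48, 6.15, 6.63 and 7.19 in P0 Hom, 7.12, 6.93, 7.02 and 7.09 in P0 Het and 6.74, 6.83, 7.26 and 6.57 in P0 Wt ganglia. Of the groups compared only P18 Het and P0 Het did not overlap, and no comparison passed the test by limma. Imp4, a U3-associated protein, had values of 4.29 and 4.11 in P18 Het, 4.24, 4.30 and 4.30 in P18 Wt, 4.31, 4.30, 4.29 and 4.58 in P0 Hom, 4.22, 4.30, 4.32 and 4.28 in P0 Het and 4.29, 4.31, 4.30 and 4.33 in P0 Wt ganglia, all near the filter. Nob1, the endonuclease that makes the last cut of the small subunit rRNA, and Rrp12, a factor in its export, were called in no comparison. Rrp12 spread widely within P0 Hom, with values of 5.22, 4.43, 6.11 and 4.67.

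Among the large subunit assembly factors, 3 of 10 (30%) were lower in Hom than in Het, beside 3.25% of all genes. With stage in Wt 4 of 10 (40%) were lower, beside 27% of all genes. Ftsj3, which in human cells is a methyltransferase of the rRNA precursor, had the largest differences of the 30 genes in Hom against Het and in Hom against Wt. Its values were 6.23 and 6.56 in P18 Het, 6.19, 5.84 and 6.64 in P18 Wt, 5.38, 5.66, 6.37 and 5.83 in P0 Hom, 7.13, 7.41, 7.62 and 7.66 in P0 Het and 7.28, 6.85, 6.07 and 6.94 in P0 Wt ganglia. All Hom arrays lay below all Het arrays, and P0 Wt replicate 3 fell inside the Hom range. Hom ganglia were at 0.319-fold of the Het level (-1.65 ± 0.26, adjusted p = 0.00145) and at 0.508-fold of the Wt level (-0.98 ± 0.26, adjusted p = 0.025). The call against Het held in all 16 alternatives (adjusted p between 8.38e-04 and 0.0373), and that against Wt in 9 of 17 (0.00312 to 0.282). P18 minus P0 was -1.06 ± 0.31 (adjusted p = 0.0106) in Het and -0.56 ± 0.28 (adjusted p = 0.0993) in Wt.

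Mdn1, the ATPase that strips assembly factors from large subunit precursors, had values of 6.93 and 7.21 in P18 Het, 7.01, 7.03 and 6.96 in P18 Wt, 6.49, 6.11, 6.76 and 5.34 in P0 Hom, 6.97, 7.36, 6.99 and 7.07 in P0 Het and 6.77, 7.18, 6.99 and 6.06 in P0 Wt ganglia. The Hom arrays were below the Het arrays (-0.92 ± 0.27, adjusted p = 0.0476), but this call held in 3 of 16 alternatives, and neither stage difference passed the test.

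Wdr12, which forms the PeBoW complex with Pes1 and Bop1, had values of 7.09 and 7.12 in P18 Het, 7.16, 7.14 and 7.22 in P18 Wt, 6.47, 6.91, 6.71 and 6.39 in P0 Hom, 7.20, 7.39, 7.15 and 6.87 in P0 Het and 6.92, 7.13, 7.25 and 6.66 in P0 Wt ganglia. It was lower in Hom than in Het (-0.53 ± 0.15, adjusted p = 0.0399), with 1 Hom array above the lowest Het array, a call that held in 7 of 16 alternatives, and showed the smallest stage difference of its group in Wt (0.18 ± 0.16, adjusted p = 0.348). The other members of the complex differed from it: Bop1 was lower at P18 in Het (-0.59 ± 0.16, adjusted p = 0.00617) and in Wt (-0.37 ± 0.14, adjusted p = 0.0367, called in 10 of 17 alternatives) and gave -0.21 ± 0.13 (adjusted p = 0.368) for Hom against Het, and Pes1 was called in no comparison.

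Rrp1b, a nucleolar protein related to yeast Rrp1, had values of 4.75 and 4.79 in P18 Het, 4.64, 4.52 and 4.45 in P18 Wt, 5.37, 5.38, 5.77 and 6.06 in P0 Hom, 5.80, 5.66, 5.93 and 5.71 in P0 Het and 5.45, 5.33, 5.82 and 5.47 in P0 Wt ganglia. It fell with stage in Het (-1.0 ± 0.19, adjusted p = 4.19e-04) and in Wt (-0.98 ± 0.17, adjusted p = 1.38e-04), to 0.506-fold of the P0 level in Wt, while the genotypes overlapped at birth (-0.13 ± 0.16, adjusted p = 0.673 for Hom against Het).

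Nop2, a cytosine methyltransferase of the rRNA, had values of 5.79 and 5.80 in P18 Het, 5.99, 6.12 and 6.06 in P18 Wt, 5.68, 6.23, 6.14 and 6.69 in P0 Hom, 6.49, 6.41, 6.31 and 6.50 in P0 Het and 6.33, 6.76, 6.61 and 6.23 in P0 Wt ganglia. The P18 arrays lay below the P0 arrays of their genotype, which passed the test in Het (-0.64 ± 0.21, adjusted p = 0.0208) and missed it in Wt (-0.42 ± 0.19, adjusted p = 0.0653). Gnl3, the nucleolar GTPase nucleostemin, and Nip7 were lower at P18 in both genotypes, Gnl3 at -0.68 ± 0.15 (adjusted p = 0.00125) in Het and -0.40 ± 0.13 (adjusted p = 0.0173) in Wt. Ebna1bp2, known in yeast as a partner of large subunit precursors, was called by limma in no comparison. Its Het arrays at birth lay above all Hom and all Wt arrays. The differences were -0.52 ± 0.17 (adjusted p = 0.0712) for Hom against Het and 0.51 ± 0.17 (adjusted p = 0.108) for Het against Wt.

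Ribosome biogenesis genes outside the 37, taken from a list of further Pol I, subunit assembly and exosome genes, gave smaller medians of the same sign in the comparisons at birth and with stage. Of 121 tested, 12 were lower (9.92%, beside 3.25% of all genes) and none was higher in Hom than in Het (median -0.27, 1 higher at an unadjusted p under 0.05). In Hom against Wt 3 were lower (2.48%, beside 3.34% of all genes) and none was higher (-0.14, 0 higher unadjusted). In Het against Wt none was called (0.11). Before adjustment 16 genes (13.2%) lay above there at p under 0.05 by limma, beside 10.4% of all genes, and 1 lay below. With stage, 50 were lower (41.3%, beside 25.5% of all genes) and 2 higher in Het (-0.38), and 37 were lower (30.6%, beside 27%) and 6 higher in Wt (-0.16). The Pol I subunit gene Polr1e was lower in Hom than in Het (-0.73 ± 0.15, adjusted p = 0.00774) and than in Wt (-0.61 ± 0.15, adjusted p = 0.015). So were the large subunit genes Rpf2, at -0.75 ± 0.17 (adjusted p = 0.0169) against Het, and Gnl2, at -0.39 ± 0.09 (adjusted p = 0.0163). Of the small subunit genes called, the largest differences against Het were in Utp6 (-0.73 ± 0.17, adjusted p = 0.0154) and Wdr43 (-0.51 ± 0.10, adjusted p = 0.00797), and of the exosome genes Exosc2 alone was called (-0.69 ± 0.20, adjusted p = 0.0497).

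With stage in Wt, this wider list held genes that fell and genes that rose. Dis3, a nuclease of the exosome, fell by 2.30 on the log2 scale and Xrn2, a nuclease that trims rRNA ends, by 0.99, whereas Exosc6 (0.68 ± 0.21, adjusted p = 0.0108) and Exosc7 (0.60 ± 0.18, adjusted p = 0.0096) rose. Among the assembly factors Rrp15 (-1.06 ± 0.15, adjusted p = 1.78e-05), Las1l (-0.75 ± 0.18, adjusted p = 0.00223), Riok1 (-1.08 ± 0.16, adjusted p = 3.98e-05) and Utp14a (-0.90 ± 0.19, adjusted p = 0.00102) fell. Sbds, which acts in the last step of large subunit maturation, rose (1.46 ± 0.14, adjusted p = 4.16e-07), as did Pak1ip1 (0.82 ± 0.18, adjusted p = 0.00129) and Tsr2 (0.90 ± 0.10, adjusted p = 1.64e-06). Of the Pol I initiation factors, Rrn3 (-0.67 ± 0.14, adjusted p = 8.05e-04) and Taf1d (-0.62 ± 0.13, adjusted p = 9.63e-04) fell.

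Ribosomal proteins are assembled into subunits by these factors. Of 79 ribosomal protein genes listed, 18 had a row and 16 passed the filter, so most of the family was not measured here. With stage, 10 of 16 were lower in Het (62.5%, beside 25.5% of all genes) and 9 of 16 in Wt (56.2%, beside 27%), and none was higher in either, also at an unadjusted p under 0.05. Rps3 and Rpl22 fell most in Wt (-1.05 ± 0.13, adjusted p = 4.4e-06 and -0.89 ± 0.16, adjusted p = 1.95e-04). The same pair was lower in Hom than in Het (-0.49 ± 0.12, adjusted p = 0.0205 and -0.56 ± 0.15, adjusted p = 0.0309), where the median over the 16 genes was -0.22.

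The Myc genes were followed because they regulate ribosome production. Mycn had log2 values of 7.29 and 7.25 in P18 Het, 7.64, 7.20 and 7.07 in P18 Wt, 8.33, 9.04, 8.63 and 8.70 in P0 Hom, 9.39, 9.64, 9.61 and 9.42 in P0 Het and 9.13, 9.39, 8.78 and 9.05 in P0 Wt ganglia. All P18 arrays lay below all P0 arrays, and at birth the Hom arrays lay below the Het arrays. The differences were -0.84 ± 0.16 (adjusted p = 0.00547) for Hom against Het, -0.42 ± 0.16 (adjusted p = 0.13) for Hom against Wt and 0.43 ± 0.16 (adjusted p = 0.165) for Het against Wt, of which the first passed the test, and P18 minus P0 was -2.25 ± 0.19 (adjusted p = 1.80e-07) in Het and -1.79 ± 0.17 (adjusted p = 4.07e-07) in Wt.

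Myc had values of 6.83 and 6.60 in P18 Het, 6.80, 6.27 and 6.35 in P18 Wt, 6.79, 7.94, 7.05 and 6.61 in P0 Hom, 7.54, 7.93, 7.67 and 7.48 in P0 Het and 7.67, 7.73, 8.18 and 7.32 in P0 Wt ganglia. It was lower at P18 in Het (-0.94 ± 0.30, adjusted p = 0.0172) and Wt (-1.25 ± 0.27, adjusted p = 9.51e-04), and the genotype differences at birth did not pass the test (-0.56 ± 0.25, adjusted p = 0.193 for Hom against Het). The Myc antagonist Mxi1 (0.50 ± 0.19, adjusted p = 0.0343) and the partner protein Mlx (0.48 ± 0.16, adjusted p = 0.0159) were higher at P18 in Wt.

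Mitosis genes gave other counts between the genotypes. Of 22 mitosis genes 15 were higher in Hom than in Wt (median 1.12), beside 5.16% of all genes, and 18 higher in Het than in Wt (1.28), beside 1.8%, while none was called in Hom against Het (median -0.11, with 0 genes above and 2 below at p under 0.05 before adjustment), the comparison with the most calls among ribosome biogenesis genes at birth. With stage both went the same way, with 22 of 22 mitosis genes lower in Het and 18 of 22 in Wt, beside 25.5% and 27% of all genes.

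Markers of the cells in the ganglia also moved between the genotypes at birth. Of 11 sympathetic neuron genes 6 were lower in Hom than in Het ganglia, beside 3.25% of all genes. Among them were Th (-0.56 ± 0.12, adjusted p = 0.0146), Ddc (-0.82 ± 0.12, adjusted p = 0.0011) and Slc18a2 (-0.42 ± 0.11, adjusted p = 0.0269). Ret was higher (1.09 ± 0.23, adjusted p = 0.0106), beside 4.14% of all genes called higher. The median over the list, centred per gene, spanned -0.34 to -0.32 in P0 Hom, -0.01 to 0.10 in P0 Het and -0.17 to 0.09 in P0 Wt arrays. Medians of Hom minus Het were 0.91 over 8 skeletal muscle genes, 0.84 over 3 fat genes, 0.46 over 8 fibroblast and matrix genes and 0.31 over 8 glia genes, with no gene of these lists called (3 fibroblast and 2 glia genes were above and none below at p under 0.05 before adjustment). The summed level of the muscle list spanned 9.64 to 12.04 in P0 Hom, 7.58 to 12.65 in P0 Het and 6.99 to 14.94 in P0 Wt arrays. In Hom against Wt 3 sympathetic neuron genes, 2 of 8 glia genes and 1 of 6 macrophage and leukocyte genes were lower, beside 3.34% of all genes. In the same comparison 1 sympathetic neuron gene and 1 of 4 endothelial genes were higher, beside 5.16% of all genes. In Het against Wt 2 glia genes, 1 macrophage and leukocyte gene and 1 fibroblast and matrix gene were lower, beside 1.3% of all genes. There 1 sympathetic neuron gene was higher, beside 1.8% of all genes. Their part in the differences of the ribosome biogenesis genes was not tested.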

How the data were processed

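RNA of mouse sympathetic ganglia was measured in 17 samples on Affymetrix Mouse Genome arrays. The deposited values are log2 expression values that the authors computed with GCRMA (version not given in the sources used here) and Brainarray gene annotation, 1 value per gene and array. No depth exists for arrays, and their number limits the precision. Genes were matched by the platform's symbol, and groups came from the sample labels.

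Here, genes with a log2 value above 4 in at least 2 arrays were kept, and a linear model with a mean for each group was fitted to the 17 arrays in limma 3.58.1 (R 4.3.3), with eBayes (trend and robust), two-sided tests and Benjamini-Hochberg adjustment over all 9973 genes kept. Calls are genes whose adjusted p was under 0.05. The code was tested on simulated data. The methods' t-test (Student's, run on the same values) was an alternative, counted at its unadjusted threshold and after adjustment.

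The members and lists were chosen with earlier results of these data known. All members are accounted for. Values in every array are given for the members of each role group with the 3 largest and the smallest stage differences in Wt, for up to 4 members called per genotype comparison, and for Myc and Mycn. Other gene lists give up to 2 called genes per direction. Genes named beyond this were chosen after their values were seen. Other alternatives were no filter, a stricter filter (log2 above 6), plain eBayes, quantile normalization, median centring, only the arrays compared, leaving out each array and a replicate block. Leaving out P0 Wt replicate 3 with P0 Hom replicate 12, or P0 Wt replicates 1 and 4, was chosen after seeing the data.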

Additional observations from a re-analysis of the deposited data

Results flagged for a closer look

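In 8 of 96 sets of 1 gene in 1 group of 4 arrays, a single array lay far from the other 3. Chance alone gives this in about 1 of 20 sets. Polr1a was 3.43 in P0 Wt replicate 4, against 4.02 to 4.03 in the other P0 Wt arrays. Nolc1 was 6.76 in P0 Hom replicate 11, against 5.98 to 6.02. Nop58 was 9.08 in P0 Wt replicate 3, against 9.52 to 9.61. Rrp9 was 4.45 in P0 Hom replicate 12, against 4.38 to 4.39, and 3.96 in P0 Wt replicate 1, against 4.37 to 4.38. Dkc1 was 8.0 in P0 Het replicate 7, against 8.10 to 8.11. Gar1 was 8.33 in P0 Hom replicate 10, against 8.05 to 8.07. Imp4 was 4.58 in P0 Hom replicate 12, against 4.29 to 4.31. For Rrp9, Imp4 and Dkc1 these sets spanned at most 0.42 on the log2 scale.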

How the results depend on the processing

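No call of a single gene changed direction in any alternative. Of the genes among the 30 that were called, the number lower in Hom than in Wt was 2 with no filter and 0 with only the arrays compared, and the number lower in Hom than in Het was 5 with no filter and 14 with P0 Hom replicate 12 and P0 Wt replicate 3 left out, a setting that gave 17 calls for P18 against P0 in Wt. The methods' t-test gave 4 calls for Het against Wt at P0 and 3 at P18 before adjustment, 14 before and 3 after adjustment for Hom against Het, and 0 after adjustment for Hom against Wt. Leaving out single arrays gave 0 to 1 calls for Het against Wt at P0, 1 to 6 for Hom against Wt, 3 to 9 for Hom against Het, 9 to 16 for P18 against P0 in Wt and 10 to 19 in Het. Without P0 Wt replicates 1 and 4 there was 1 call for Het against Wt at P0, with a median difference of 0.0089, and the median of the interaction was -0.19. Median centring gave medians of -0.44 for Hom against Het, -0.29 for P18 against P0 in Wt and -0.33 for the interaction, with shifts of the median of all genes to -0.10, 0.10 and -0.13. With no filter the median of P18 minus P0 in Het was -0.54, over 32 genes. The interaction median ranged from -0.31 to -0.18 when single arrays were left out, and -0.18 is the value without P0 Wt replicate 4. Where the construction does not show it (fewer samples, more genes tested), the cause of such a change was not tested.

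Same-numbered P18 Wt and P0 Wt samples correlated at 0.07, 0.09 and -0.18 in their deviations from the group means, so the numbers do not pair them. With a replicate block, fitted to replicates 1 to 3 of both groups alone, 11 genes were called, 10 of them lower, and the median was -0.46.

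Over all genes the calls also moved by more than 1.5 times. For Het against Wt at P0, where 310 genes were called, there were 693 without P0 Wt replicates 1 and 4, and 1751 before and 60 after adjustment by the methods' t-test. For Hom against Wt (848) there were 347 with only the arrays compared and 1312 and 142 by that test. For Hom against Het (737) there were 474 with no filter, 1456 with P0 Hom replicate 12 and P0 Wt replicate 3 left out, and 2024 and 224 by that test. For Het against Wt at P18 (26) there were 56 with no filter, 15 with the stricter filter and 1028 and 1 by that test. For the interaction (14) the counts ran from 3 with the stricter filter to 67 with P0 Hom replicate 12 and P0 Wt replicate 3 left out. Leaving out single arrays gave 159 to 385 calls for Het against Wt at P0, 352 to 970 for Hom against Het, 5 to 29 for Het against Wt at P18 and 2 to 28 for the interaction.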
